A study of Mus musculus with 9 samples.

Results

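The 10 genes described here encode the subunits of Polycomb repressive complex 2 (PRC2) and an enzyme that reverses its mark: Ezh1, Ezh2, Eed, Suz12, Rbbp4, Rbbp7, Jarid2, Mtf2, Phf19 and Kdm6b. They were chosen by symbol, and all 10 were found among the 32286 features of the table. Whole primary tumours of the mouse mammary tumour line 168FARN were dissociated, frozen, cleared of debris over Percoll and sequenced as 10x 5′ single-cell RNA libraries. There were 9 libraries of 1 tumour each: 3 of wild-type cells (WT), 3 of cells knocked out for Kmt2c (Kmt2c KO) and 3 of cells knocked out for its paralogue Kmt2d (Kmt2d KO), genes that encode methyltransferases of histone H3. In all 3 groups the tumour cells carried H2BMc, an H2B–mCherry reporter transcript, and had been injected into the mammary fat pads of Balb/c mice, which the study's methods give as syngeneic females a few weeks old when bought. The knockouts were made by transient expression of Cas9 and pooled guides against exon 1 and were sorted pools of cells, so that the tumours of a knockout were replicates of mice and not of independent knockouts.

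PRC2 methylates lysine 27 of histone H3 (H3K27), and its trimethylated form marks genes that are kept silent. Ezh1 and Ezh2 are alternative catalytic subunits, which need Eed and Suz12 to work, while Rbbp4 and Rbbp7 bind histones and also serve in other chromatin complexes. Jarid2, Mtf2 and Phf19 are accessory subunits that help to bring PRC2 to its sites, whereas Kdm6b and Kdm6a remove methyl groups from H3K27. Kdm6a is itself a subunit of the complexes built around Kmt2c and Kmt2d. In many tissues Ezh2 is known for its link to dividing cells and Ezh1 for persisting in cells that no longer divide.

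Promoters are shown first for 5 genes, those with a window whose levels differed most between dividing and other tumour cells. Promoter windows of 300 bases, from 250 before to 50 after the annotated start, were taken from RefSeq (build GRCm38.p6), which had 11 windows for 9 of the 10 genes. No window was found for Kdm6b. Each is written 5′ to 3′ on the strand of its gene, with capitals where a motif was matched. The Ezh2 window (minus strand, chr6:47594981-47595280), the Phf19 window (minus strand, chr2:34913927-34914226), the Suz12 window (plus strand, chr11:79992856-79993155), the Rbbp7 window (plus strand, chrX:162760122-162760421) and the Ezh1 window (minus strand, chr11:101226414-101226713) read as follows.
Ezh2: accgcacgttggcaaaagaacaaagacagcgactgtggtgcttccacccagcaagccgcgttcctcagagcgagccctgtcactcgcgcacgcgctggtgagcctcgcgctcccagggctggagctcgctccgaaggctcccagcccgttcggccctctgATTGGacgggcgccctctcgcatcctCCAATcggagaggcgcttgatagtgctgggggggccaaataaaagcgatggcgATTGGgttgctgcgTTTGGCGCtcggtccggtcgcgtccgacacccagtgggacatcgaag
Phf19: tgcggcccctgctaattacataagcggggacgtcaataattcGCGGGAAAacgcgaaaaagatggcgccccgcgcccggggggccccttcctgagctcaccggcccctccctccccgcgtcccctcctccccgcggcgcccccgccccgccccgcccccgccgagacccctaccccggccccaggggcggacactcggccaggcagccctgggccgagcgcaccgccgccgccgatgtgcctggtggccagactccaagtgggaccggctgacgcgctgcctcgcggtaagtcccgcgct
Suz12: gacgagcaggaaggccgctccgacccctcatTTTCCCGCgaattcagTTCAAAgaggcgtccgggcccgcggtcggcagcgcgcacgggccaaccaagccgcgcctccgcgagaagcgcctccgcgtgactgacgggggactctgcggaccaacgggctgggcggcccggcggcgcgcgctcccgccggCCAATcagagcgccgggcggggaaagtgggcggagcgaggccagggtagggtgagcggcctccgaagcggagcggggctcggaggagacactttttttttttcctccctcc
Rbbp7: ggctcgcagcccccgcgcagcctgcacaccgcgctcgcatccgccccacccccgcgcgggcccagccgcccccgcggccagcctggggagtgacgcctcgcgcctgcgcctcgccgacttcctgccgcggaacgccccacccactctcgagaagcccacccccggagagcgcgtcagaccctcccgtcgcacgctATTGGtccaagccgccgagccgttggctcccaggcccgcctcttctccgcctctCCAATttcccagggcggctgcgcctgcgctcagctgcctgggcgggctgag
Ezh1: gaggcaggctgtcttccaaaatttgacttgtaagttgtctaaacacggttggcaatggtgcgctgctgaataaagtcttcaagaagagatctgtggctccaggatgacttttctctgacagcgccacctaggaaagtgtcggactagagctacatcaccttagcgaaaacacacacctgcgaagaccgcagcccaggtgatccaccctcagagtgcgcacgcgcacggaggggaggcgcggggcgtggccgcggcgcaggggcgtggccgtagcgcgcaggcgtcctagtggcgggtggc
Capitals mark E2F-type words (TTTCCCGC, TTTCGCGC, TTTGCCGC or TTTGGCGC), the cell cycle homology element TTTGAA and the CCAAT box, each searched on both strands. An E2F-type word was found in 3 of the 11 windows, those of Ezh2, Phf19 and Suz12, against 2.27% of all 32851 windows of the same length (744 windows). In Ezh2 the word TTTGGCGC lay at positions 3 to 10 after the start base, counted as 0, on the strand of the gene. In Phf19 the word TTTCCCGC lay on the other strand at -208 to -201, and in Suz12 it lay on the strand of the gene at -219 to -212. The Rbbp7 window, of a gene that rose more than Suz12 in cycling cells, held no E2F-type word and 2 CCAAT boxes, and the Ezh1 window held none of the 3 motifs. TTTGAA was found in windows of Suz12, Eed and Mtf2, beside 17.9% of all windows. CCAAT was found in windows of Ezh2, Suz12, Rbbp7, Rbbp4, Eed, Mtf2 and Jarid2, beside 37.4% of all windows. A match is a description of these letters, and binding was not measured.

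Of 89147 barcodes 58645 were kept, those with over 500 and under 7500 genes and with under 15% mitochondrial counts, and tumour cells were those with at least 1 unique molecular identifier (UMI) of H2BMc, 16707 in all. A library held 361 to 3434 such cells with 9779795 to 47951145 UMIs. WT libraries stood apart, with 361 to 925 of these cells and medians of 13729 to 24081 UMIs per cell, against 8661 to 14789 in the knockouts. They also held fewer kept cells of all kinds, 939 to 2380 against 5997 to 14525. CPM are the UMIs of a gene scaled to all UMIs of the cells summed, here the H2BMc-positive cells of a library. For a class or gate of cells, the total was that of the class or gate. In Kmt2c KO library 1, for example, 5197 H2BMc UMIs among 34057388 UMIs gave 152.6 CPM. H2BMc measured 142 to 153 CPM in Kmt2c KO, 90.6 to 117 CPM in Kmt2d KO and 72.7 to 113 CPM in WT libraries. The epithelial keratin Krt8 measured 235 to 339, 304 to 466 and 550 to 569 CPM in the same order. Krt18, the usual partner of Krt8, was nearly absent, with at most 0.459 CPM in a library. The fibroblast marker minimum used below was reached by 8.62 to 14.97% of H2BMc-positive cells in Kmt2c KO, 10.996 to 22.2% in Kmt2d KO and 21.3 to 27.7% in WT libraries. Kmt2c and Kmt2d were targeted in exon 1, so their 5′ UMI counts do not check the knockouts. Of 56715 kept barcode sequences, 1889 occurred in more than 1 library, and pairs of libraries shared 0.213 to 2.28% of the smaller one. Libraries of a group differed from each other beyond sampling noise in all 9 pairs (chi-square per degree of freedom 4.18 to 77.3).

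The first comparison asked whether the loss of Kmt2c or Kmt2d moved the PRC2 genes in tumour cells. UMIs were summed per library over the H2BMc-positive cells, because cells are not replicates, and edgeR's quasi-likelihood test was run on them over 14089 genes. A gene was called where its p, adjusted by the Benjamini-Hochberg method over all genes, was below 0.05. Between Kmt2c KO and WT 1 of the 10 genes was called, Rbbp7, which was lower in Kmt2c KO, while 18.7% of all genes tested were called. Between Kmt2d KO and WT 0 of 10 were called, and 0 at an unadjusted p under 0.05, with 2.27% of all genes called. Between the knockouts 0 of 10 were called, and 1 had an unadjusted p under 0.05, with 0.0781% of all genes called. The median log2 fold change of the 10 genes was -0.07 in Kmt2c KO and -0.07 in Kmt2d KO against WT, beside -0.0039 and 0.0050 over all genes. Both knockouts were set against the same WT libraries. Where groups are said below to lie apart, this describes their libraries only, and the share of all genes that separate likewise is not given. These p-values measure the spread between tumours, and in sums over cells fewer cells of a kind and less RNA per cell cannot be told apart.

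**Figure D1:**
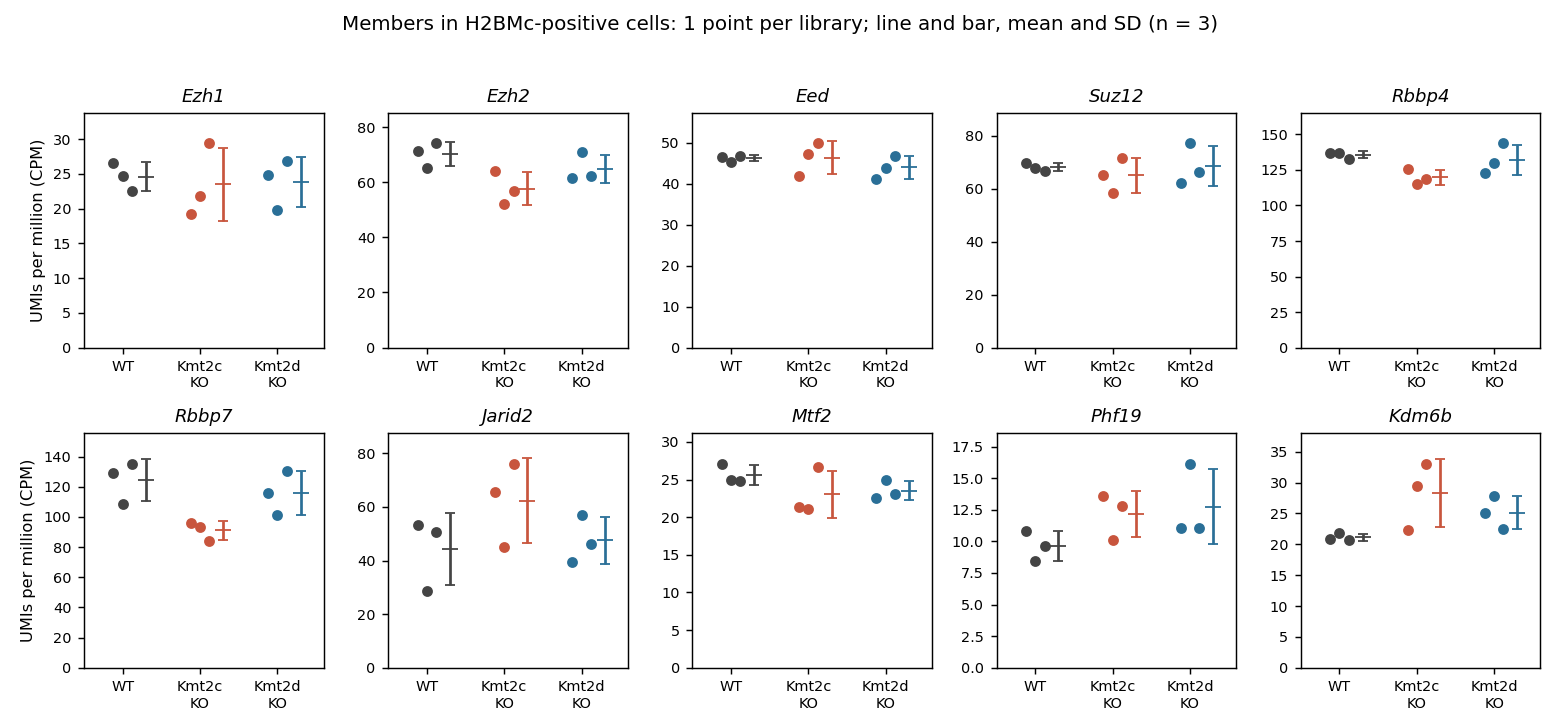
CPM (y axis, from 0) of each of the 10 genes summed over the H2BMc-positive cells of a library, by genotype (x axis), with 1 point per library and the mean and SD of 3 libraries beside it. Rbbp7 lies at 83.8 to 95.9 CPM in Kmt2c KO and at 109 to 135 CPM in WT, and Jarid2 spreads widely within each genotype.

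Among the catalytic subunits, Ezh2 in libraries 1 to 3 was measured in Kmt2c KO at 64.0, 52.1 and 56.8 CPM, in Kmt2d KO at 61.6, 70.8 and 62.3 CPM and in WT at 71.3, 65.4 and 74.1 CPM. All Kmt2c KO libraries lay below all WT libraries, and the Kmt2d KO libraries overlapped both. The difference did not pass in Kmt2c KO (log2 fold change -0.29 ± 0.10 SE, adjusted p = 0.0614, 95% interval -0.48 to -0.10) or in Kmt2d KO (-0.15 ± 0.10, adjusted p = 0.480, edgeR's quasi-likelihood test). For Kmt2c KO it passed in a fit of these groups alone (-0.28, adjusted p = 0.0450), in library sums thinned to the smallest total (-0.31, adjusted p = 0.0406), in cells that passed no other gate (-0.34, adjusted p = 0.0197) and without Kmt2c KO library 1 (-0.36, adjusted p = 0.0391) or Kmt2d KO library 2 (-0.29, adjusted p = 0.0273). The Ezh2 difference did not pass without any 1 of the other 7 libraries, with DESeq2 or with no low-count filter. In cycling cells alone it was -0.03 (adjusted p = 0.838, edgeR's quasi-likelihood test), and other cells alone are described below. Ezh1 ranged over 19.2 to 29.4 CPM in Kmt2c KO, 19.8 to 26.9 CPM in Kmt2d KO and 22.5 to 26.6 CPM in WT, so that the groups overlapped.

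Rbbp7, the histone-binding subunit that PRC2 shares with deacetylase complexes, was measured at 95.9, 93.4 and 83.8 CPM in Kmt2c KO, 116, 101 and 130 CPM in Kmt2d KO and 129, 109 and 135 CPM in WT libraries 1 to 3. Its level was lower in every Kmt2c KO library than in every WT or Kmt2d KO library. The log2 fold change against WT was -0.45 ± 0.12 (adjusted p = 0.0307) in Kmt2c KO and -0.13 ± 0.12 (adjusted p = 0.637) in Kmt2d KO, and that between the knockouts was 0.31 ± 0.12 (adjusted p = 0.223, edgeR's quasi-likelihood test). The call in Kmt2c KO was lost when any 1 of Kmt2c KO libraries 1, 2 and 3 or WT libraries 1 and 3 was left out, with log2 fold changes of -0.48 to -0.36 and the highest adjusted p, 0.123, without WT library 3. It was also lost in the set of H2BMc-positive or Krt8-positive cells that passed no other gate (-0.42, adjusted p = 0.0617) and in cycling cells alone (-0.33, adjusted p = 0.0968). Between the knockouts it was called without Kmt2d KO library 2 (0.41, adjusted p = 0.0237). Its close relative Rbbp4 measured 115 to 125 CPM in Kmt2c KO, 123 to 144 CPM in Kmt2d KO and 133 to 137 CPM in WT, and was not called.

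Eed, which binds the methyl mark and stimulates the enzyme, and Suz12, the scaffold of the complex, did not pass in any of the 3 comparisons. Eed lay between 41.3 and 49.9 CPM over all 9 libraries, the narrowest relative range of the 10 genes. Suz12 lay between 58.3 and 77.1 CPM, with WT libraries at 66.9 to 69.8 CPM in the middle of that range.

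Of the accessory subunits, Jarid2 had the largest SD in CPM between libraries of each genotype, although relative to its mean Phf19 (12.8 ± 2.94 CPM) varied more than Jarid2 (47.5 ± 8.78 CPM) in Kmt2d KO. Its libraries 1 to 3 held 65.7, 45.1 and 76.2 CPM in Kmt2c KO, 39.4, 56.8 and 46.3 CPM in Kmt2d KO and 53.3, 28.7 and 50.8 CPM in WT. All 3 genotypes overlapped, and WT library 2 was the lowest of the 9. The log2 fold change of Kmt2c KO against WT was 0.49 ± 0.23 (adjusted p = 0.165, edgeR's quasi-likelihood test) and was 0.27 without WT library 2. No single library supplied most of the Jarid2 UMIs of its genotype: the largest share was 45.1% in Kmt2d KO library 3, which held 46.6% of all UMIs of that genotype, and the largest in Kmt2c KO and WT were 38.8% (library 3, with 31.8% of all UMIs) and 36.9% (library 1, with 29.2%). Within a library the 1% of cells with the most Jarid2 UMIs held 6.004 to 10.99% of them, and 1 cell held at most 13. When cells with at least 3000 UMIs were thinned to 3000, 13.9 to 21.8% of Kmt2c KO, 13.2 to 17.9% of Kmt2d KO and 10.4 to 15.2% of WT cells held a Jarid2 UMI.

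Mtf2 and Phf19 are Polycomb-like subunits. Mtf2 ranged over 21.1 to 26.7 CPM in the knockouts and 24.7 to 27.1 CPM in WT, and Phf19, the gene with the fewest UMIs (94 to 531 per library), over 10.1 to 16.2 CPM in the knockouts and 8.47 to 10.8 CPM in WT. Neither was called. The log2 fold change of Phf19 against WT was 0.34 ± 0.17 (adjusted p = 0.193) in Kmt2c KO and 0.38 ± 0.17 (adjusted p = 0.292, edgeR's quasi-likelihood test) in Kmt2d KO.

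The demethylase Kdm6b was measured at 22.3, 29.5 and 33.1 CPM in Kmt2c KO, 25.1, 27.8 and 22.4 CPM in Kmt2d KO and 20.9, 21.8 and 20.8 CPM in WT libraries 1 to 3. All 6 knockout libraries lay above all 3 WT libraries, the nearest of them by less than 1 CPM. The log2 fold change was 0.41 ± 0.14 (adjusted p = 0.0596) in Kmt2c KO and 0.21 ± 0.14 (adjusted p = 0.470) in Kmt2d KO by edgeR's quasi-likelihood test. For Kmt2c KO it passed with DESeq2 (adjusted p = 0.0403) and in a fit of these groups alone (adjusted p = 0.0317). It also passed in edgeR's quasi-likelihood test with no filter on low counts (0.45, adjusted p = 0.0289) and in cells that passed no other gate (0.55, adjusted p = 0.0289). It passed as well without Kmt2c KO library 1 (0.57, adjusted p = 0.0111) or Kmt2d KO library 2 (0.41, adjusted p = 0.0278), but not without any 1 of the other 7 libraries. The Kmt2c KO difference did not pass within the cell cycle classes set out below. By edgeR's quasi-likelihood test it was 0.37 (adjusted p = 0.190) in cycling cells alone and 0.17 (adjusted p = 0.458) in other cells alone. Other cells held 36.6 to 45.0 CPM in Kmt2c KO, 39.0 to 50.7 CPM in Kmt2d KO and 33.5 to 43.7 CPM in WT, which overlapped. The part of the cell cycle in the difference was not tested. The antisense gene Kdm6bos held 23 UMIs in all tumour cells together. Kdm6a stood at 27.2 to 37.3 CPM in Kmt2c KO, 34.9 to 37.8 CPM in Kmt2d KO and 32.9 to 36.0 CPM in WT, with no call.

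The next comparison asked how the genes moved with the cell cycle, since the share of cycling cells can move a library's mean. A cell was placed in G2/M with UMIs of at least 3 of 10 G2/M genes, otherwise in S with at least 5 of 16 S genes, and otherwise among the other cells, and none of the 10 genes served in these gates. This gave 5085 G2/M, 2211 S and 9411 other cells, with medians of 18440, 15617 and 9033 UMIs, and 3213 cells (19.2%) lay within 1 marker of a limit. Cycling cells, those in S or G2/M, made up 35.6 to 45.2% of Kmt2c KO, 39.5 to 59.1% of Kmt2d KO and 42.8 to 56.8% of WT libraries. The means differed by -9.90 percentage points between Kmt2c KO and WT (exact permutation test, two-sided, p = 0.2, adjusted p = 0.6) and by -2.52 points between Kmt2d KO and WT (p = 0.7, adjusted p = 0.7), where 3 libraries against 3 allow no p below 0.1. Cells with at least 3000 UMIs were also thinned to 3000 and gated on at least 2 of 10 G2/M or 3 of 16 S genes. The first of these differences was then -2.06 points and the second changed sign, to 3.435 points. The second was also above 0 without Kmt2d KO library 1 or WT library 3, at most 1.27 points.

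Sums of cycling and other cells were then compared within libraries, with the library as a block, and 9 of the 10 genes differed: 6 were higher and 3 lower in cycling cells. Of all 12417 genes tested 77.2% were called, so that this count is close to the background. The median log2 fold change was 0.36 over the 10 genes and -0.03 over all genes. Of the 10, Phf19 and Ezh2 had the largest rises and Ezh1 and Kdm6b the largest falls, and each of these 4 moved the same way in 9 of 9 libraries. In the plot of ratios by library the catalytic subunits lie on opposite sides of 0.

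**Figure D2:**
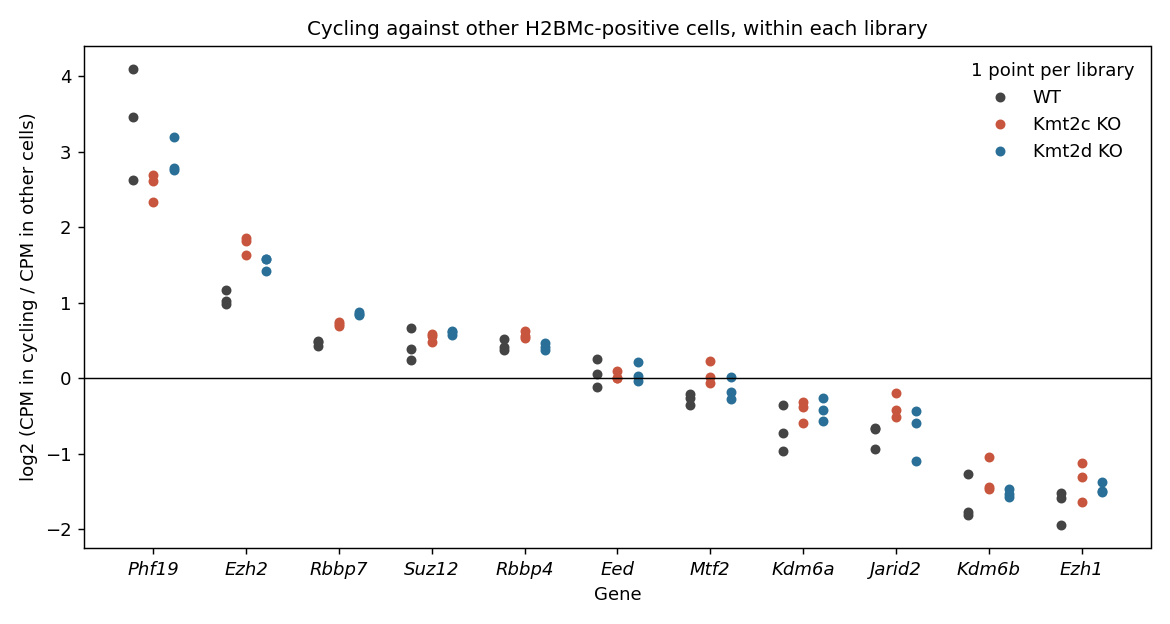
log2 of the ratio of CPM in cycling to CPM in other H2BMc-positive cells (y axis) for the 10 genes and Kdm6a (x axis), with 1 point per library coloured by genotype. Phf19 and Ezh2 are above 0 in 9 of 9 libraries and Ezh1, Kdm6b, Jarid2 and Kdm6a below 0 in 9 of 9, and for Ezh2 the 3 WT libraries (0.98 to 1.17) lie below the 6 knockout libraries (1.42 to 1.86).

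Phf19 rose by 2.82 ± 0.10 on the log2 scale (adjusted p = 2.07e-14), from 0.913 to 3.92 CPM in other cells to 12.7 to 21.6 CPM in cycling cells. Its level in other cells rested on 253 UMIs in all libraries together. Ezh2 rose by 1.60 ± 0.07 (adjusted p = 6.60e-13), from 23.1 to 43.3 CPM in other cells to 80.4 to 87.9 CPM in cycling cells. For both genes the lowest cycling sum exceeded the highest sum of other cells.

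Among the core subunits, Rbbp7 rose by 0.79 ± 0.05, Suz12 by 0.64 ± 0.04 and Rbbp4 by 0.57 ± 0.03 on the log2 scale, each with a ratio above 1 in 9 of 9 libraries. Suz12 stood at 47.3 to 62.1 CPM in other and 69.5 to 85.3 CPM in cycling cells, and Rbbp4 at 92.8 to 118 CPM and 136 to 158 CPM, so that neither range overlapped. For Rbbp7 the highest other value, 105.0 CPM in WT library 3, passed the lowest cycling value, 104.5 CPM in Kmt2c KO library 3. Eed rose by 0.15 ± 0.04 (adjusted p = 0.00204 by edgeR's quasi-likelihood test), and its unscaled CPM ratio was above 1 in 7 of 9 libraries. Mtf2 did not pass (log2 fold change -0.01 ± 0.05, adjusted p = 0.977, 95% interval -0.11 to 0.09). With a gate on a score of the study's lists it was called at 0.14 (adjusted p = 0.0121).

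The falls were those of Ezh1, Kdm6b and Jarid2. Ezh1 fell by 1.37 ± 0.06 on the log2 scale, from 30.2 to 53.0 CPM in other cells to 10.6 to 18.6 CPM in cycling cells, and Kdm6b fell by 1.36 ± 0.06, from 33.5 to 50.7 CPM to 11.6 to 21.7 CPM. The ranges did not overlap for either gene. Jarid2 fell by 0.50 ± 0.07, with 36.8 to 87.5 CPM in other and 23.3 to 65.3 CPM in cycling cells, where the ranges overlapped although all 9 libraries moved the same way. Kdm6a fell by 0.39 ± 0.05.

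G2/M was next set against S. The G2/M gate was applied first, so cells in S phase that held UMIs of 3 or more G2/M genes were counted in G2/M. Of the 10 genes 7 were higher in G2/M and 2 lower, beside 55.9% of 11050 genes called. Phf19 rose by 1.52 ± 0.09 and Ezh2 by 1.07 ± 0.06 on the log2 scale, Suz12 by 0.59, Rbbp7 by 0.46, Rbbp4 by 0.29 and Eed by 0.19. Mtf2 rose by 0.14 (adjusted p = 0.0389), a call lost with DESeq2 (adjusted p = 0.152) and without any 1 of 7 libraries, all but Kmt2c KO library 1 and WT library 1, with 0.12 to 0.15. Ezh1 fell by 0.73 ± 0.08 and Kdm6b by 0.65 ± 0.09. In cells gated after thinning to 3000 UMIs the Kdm6b difference was 0.01 (adjusted p = 0.934), and Jarid2, which did not pass here (-0.04, adjusted p = 0.724), was called higher at 0.24 (adjusted p = 0.00223 by edgeR's quasi-likelihood test). The mean of Ezh2 ran in order from other cells (31.8 ± 7.36 CPM, SD over 9 libraries) through S (48.3 ± 6.12 CPM) to G2/M (98.5 ± 2.71 CPM). There was some overlap between the first pair and none between the last. S was not tested against other cells, and WT library 1 held 42.0 CPM in other cells and 41.5 CPM in S. The means of other and S cells were 40.9 and 47.4 CPM in WT, 25.1 and 52.4 CPM in Kmt2c KO and 29.4 and 45.2 CPM in Kmt2d KO. Kdm6b ran the opposite way, from 41.3 ± 5.03 CPM through 20.8 ± 2.73 CPM to 12.7 ± 3.74 CPM, and S and G2/M overlapped. Ezh1 likewise went from 40.2 ± 6.92 CPM through 20.8 ± 3.87 CPM to 11.8 ± 2.30 CPM.

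Genotype and cell cycle were then tested together, asking whether the difference between cycling and other cells was the same in a knockout as in WT. For Kmt2c KO 1 of the 10 genes passed, Ezh2, against 1.81% of all genes tested. For Kmt2d KO 0 of 10 passed, with 2 at an unadjusted p under 0.05, against 0.0672% of all genes tested, and DESeq2 called 18 of all genes where edgeR called 9. The cycling effect on Ezh2 was larger in Kmt2c KO than in WT by 0.64 ± 0.10 on the log2 scale (adjusted p = 0.00416, 95% interval 0.45 to 0.83). In Kmt2d KO it was larger by 0.41 ± 0.10 (adjusted p = 0.133, 95% interval 0.21 to 0.60), which did not pass. For Rbbp7 the corresponding values were 0.19 ± 0.08 (adjusted p = 0.250) and 0.35 ± 0.08 (adjusted p = 0.117, edgeR's quasi-likelihood test). Both Kmt2d KO values passed with no filter on low counts, at 0.44 (adjusted p = 0.0294) for Ezh2 and 0.38 (adjusted p = 0.0227) for Rbbp7, and that of Rbbp7 also without Kmt2d KO library 2 (0.39, adjusted p = 0.0339). The median of the 10 genes was 0.20 in Kmt2c KO and 0.05 in Kmt2d KO, beside 0.02 and 0.01 over all genes.

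**Figure D3:**
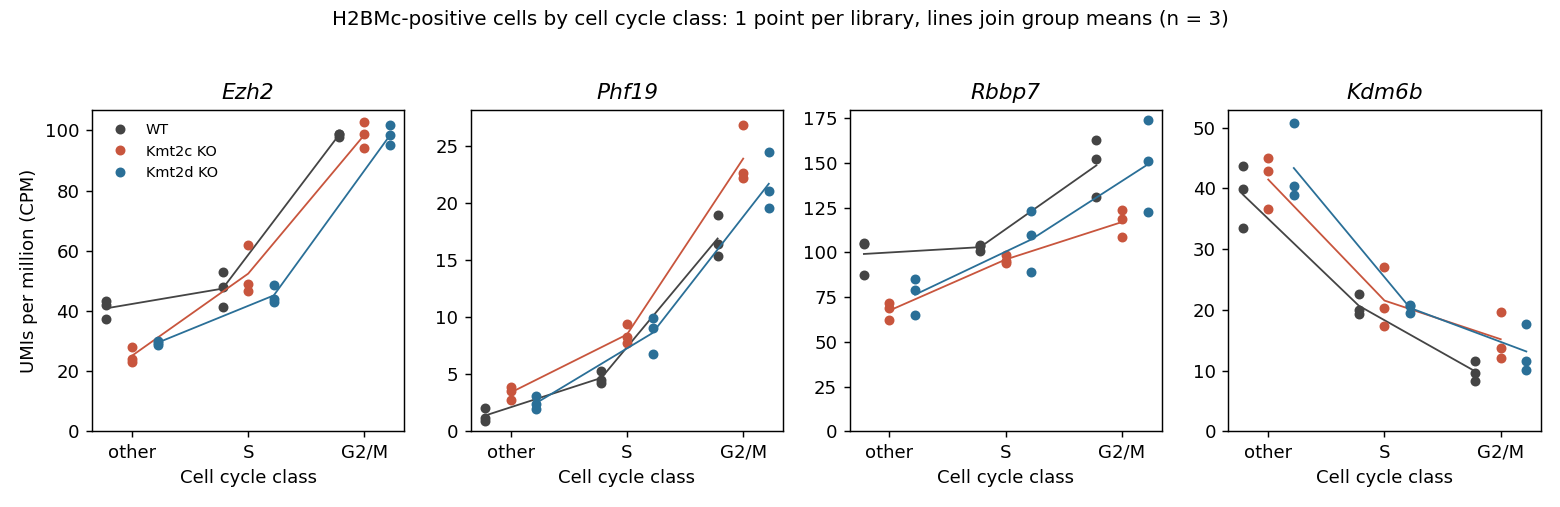
CPM (y axis, from 0) of Ezh2, Phf19, Rbbp7 and Kdm6b in other, S and G2/M cells (x axis), with 1 point per library and lines that join the means of 3 libraries of a genotype. Ezh2 differs between the genotypes in other cells (37.3 to 43.3 CPM in WT, 23.1 to 30.1 CPM in the knockouts) and overlaps between them in S and G2/M.

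The difference lay in the cells outside the cycle gates. There the libraries 1 to 3 gave Ezh2 levels of 28.0, 23.1 and 24.2 CPM in Kmt2c KO, 28.7, 29.5 and 30.1 CPM in Kmt2d KO and 42.0, 37.3 and 43.3 CPM in WT. All 6 knockout libraries lay below all 3 WT libraries. In cycling cells the same libraries gave 81.7 to 87.8 CPM, 80.4 to 87.9 CPM and 84.2 to 85.7 CPM, so that the WT range lay within both others. In S cells alone the ranges were 46.6 to 61.8 CPM, 42.8 to 48.6 CPM and 41.5 to 52.8 CPM, and in G2/M cells 94.2 to 103 CPM, 95.2 to 102 CPM and 97.7 to 98.9 CPM.

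Tested in these other cells alone, 3 of the 10 genes passed between Kmt2c KO and WT, beside 16.1% of all genes. Ezh2 was lower (log2 fold change -0.63 ± 0.11, adjusted p = 0.00374), Rbbp7 was lower (-0.48 ± 0.12, adjusted p = 0.0218) and Phf19 was higher (1.22 ± 0.36, adjusted p = 0.0388). The Phf19 value rested on 52, 42 and 52 UMIs in Kmt2c KO and on 3, 12 and 3 in WT. In cycling cells alone 1 of 10 passed, beside 15.5% of all genes. This was Phf19 (0.49 ± 0.13, adjusted p = 0.0335), with 19.8, 17.7 and 21.6 CPM in Kmt2c KO and 15.7, 12.8 and 12.7 CPM in WT, groups that did not overlap. In S cells alone Phf19 stood at 9.42, 8.30 and 7.75 CPM in Kmt2c KO, 9.95, 9.11 and 6.81 CPM in Kmt2d KO and 4.53, 4.24 and 5.28 CPM in WT, from 7 to 59 UMIs a library. The 6 knockout values lay above the 3 WT values, a difference that was not tested in S cells.

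Between Kmt2d KO and WT 0 of 10 passed in other cells, beside 1.24% of all genes, and 0 of 10 in cycling cells, beside 2.76%. At an unadjusted p under 0.05 these were Ezh2 and Rbbp7 in other cells and Phf19 in cycling cells. The log2 fold change of Ezh2 was -0.45 ± 0.11 in other cells (adjusted p = 0.0675) and -0.05 ± 0.07 in cycling cells (adjusted p = 0.755, edgeR's quasi-likelihood test). Rbbp7 in other cells was measured at 68.7, 71.7 and 62.1 CPM in Kmt2c KO, 79.1, 65.0 and 85.0 CPM in Kmt2d KO and 105, 87.6 and 105 CPM in WT libraries, and the 6 knockout values lay below the 3 WT values.

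Depth and fibroblast markers moved with this result. The median other cell held 6694 to 9874 UMIs in Kmt2c KO, 8696 to 10796 in Kmt2d KO and 10544 to 15615 in WT libraries. The thinned gate took cells with at least 3000 UMIs, thinned to 3000, and needed 2 of 10 G2/M or 3 of 16 S genes. It left out 47 to 197 H2BMc-positive cells a library in Kmt2c KO, 52 to 383 in Kmt2d KO and 6 to 10 in WT. Under it Ezh2 in other cells was at 28.2, 24.8 and 26.7 CPM in Kmt2c KO, 28.9, 30.2 and 31.9 CPM in Kmt2d KO and 41.3, 36.9 and 43.3 CPM in WT. Without the cells that reached the marker minimum of another type, a choice made after the data had been seen, the WT values were 43.5, 41.5 and 34.8 CPM and the knockout values 23.7 to 30.7 CPM. The groups did not overlap under either gate. The value tested for Ezh2, cycling effect in Kmt2c KO against that in WT, was 0.50 (adjusted p = 0.00695) under the thinned gate and 0.61 (adjusted p = 0.0107) without those cells, and leaving out each library in turn gave 0.60 to 0.69, with adjusted p of at most 0.0275 by edgeR's quasi-likelihood test.

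Other genes of the Polycomb system were counted from lists, with their medians as context. Between Kmt2c KO and WT none of 3 other PRC2 subunits, 23 PRC1 subunits or 3 genes of H3K27 demethylases and acetyltransferases was called, and the medians of these lists were 0.13, 0.02 and 0.09 on the log2 scale. Over all genes tested 18.7% were called. Of 7 genes of the H2A deubiquitinase 1 was higher, the transcription factor gene Foxk1 (0.46 ± 0.12), and the median was 0.13. Of 21 genes of other complexes that hold Rbbp4 or Rbbp7 4 were called, a share near that of all genes, with a median of -0.07. Among these Sap30, of the Sin3 deacetylase complex, was higher (0.72 ± 0.17), and Sap18 (-0.51 ± 0.09), the chromatin assembly subunit gene Chaf1a (-0.46 ± 0.12) and the remodeller gene Chd4 (-0.33 ± 0.08) were lower. The call of Chaf1a was lost in cycling cells alone (-0.26, adjusted p = 0.0544), in other cells alone (-0.22, adjusted p = 0.431) and in thinned library sums (-0.40, adjusted p = 0.0516), beside the lower mean share of cycling cells in Kmt2c KO given above, whose part in it was not tested. Foxk1 lost its call in cycling cells alone (0.39, adjusted p = 0.0840), Sap30 in other cells alone (0.64, adjusted p = 0.0930) and Chd4 with no low-count filter (-0.29, adjusted p = 0.0525). The call of Sap18 was kept without each library in turn. Those of Foxk1 (0.42 to 0.47) and Chaf1a (-0.43 to -0.37) were lost without Kmt2c KO library 2 or 3 or WT library 1 or 3, that of Chd4 (-0.30 to -0.28) without Kmt2c KO library 2 or WT library 1 or 3, and that of Sap30 without WT library 2 (0.62) or 3 (0.73). Between Kmt2d KO and WT none of these genes was called.

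Between cycling and other cells 77.2% of all genes were called, and the shares of the 2 longest lists lay near that. Of the 21 genes of other complexes with Rbbp4 or Rbbp7 14 were higher and 2 lower, with a median of 0.21, led by the chromatin assembly genes Chaf1b (2.995 ± 0.097) and Chaf1a (2.56 ± 0.05), the acetyltransferase gene Hat1 (1.92 ± 0.06) and Lin54 (1.26 ± 0.08). Of the 23 PRC1 genes 7 were higher and 11 lower, with a median of -0.06, among them Scml2 (1.27 ± 0.17), L3mbtl2 (0.69 ± 0.05) and Cbx2 (0.69 ± 0.11), which were higher, and Cbx7 (-0.91 ± 0.09), which was lower. Of the other PRC2 subunits Phf1 fell by 1.20 ± 0.04, Lcor fell by 0.16 ± 0.04 and Aebp2 rose by 0.19 ± 0.04. Phf1 and Phf19 are paralogues, and they moved in opposite directions. Kdm6a, Ep300 (-0.46 ± 0.04) and Crebbp (-0.51 ± 0.04) were lower, the latter being acetyltransferases that act on H3K27. Of the 7 deubiquitinase genes 3 were higher and 3 lower, with a median of -0.07, among them Foxk2 (0.40 ± 0.05), Hcfc1 (0.39 ± 0.04), Asxl2 (-0.41 ± 0.04) and Ogt (-0.73 ± 0.06). Between G2/M and S, where 55.9% of all genes were called, 13 of the 21 genes of other complexes with Rbbp4 or Rbbp7 were higher and 1 lower, and of the PRC1 genes 4 were higher and 6 lower. For the difference of the cycling effects in Kmt2c KO and WT, 1.81% of all genes tested were called. Of the 7 deubiquitinase genes 1 was called, Ogt (0.53 ± 0.11). None was called of the 3 other PRC2 subunits, 23 PRC1 genes, 3 demethylase and acetyltransferase genes and 21 genes of other complexes.

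The last comparison set the stromal and immune cells of the same tumours against all H2BMc-positive cells, cycling and other together. Cells with 0 UMIs of H2BMc and of Krt8 were gated by markers fixed for each type, none of them among the 10 genes, which gave 746 macrophage-gated, 409 endothelial-gated, 439 lymphocyte-gated and 1296 fibroblast-gated cells. Their median depths were 2321, 4994, 1229 and 6663 UMIs. Of the markers listed, 10 of 10, 8 of 8, 10 of 10 and 6 of 7 were detected in at least 10% of the cells. These markers chose the cells, so their detection is no separate check of the gates. Ptprc, a leukocyte marker that no gate used, was at 510 and 989 CPM in the macrophage and lymphocyte gates. It was at 0 and 0.762 CPM in the endothelial and fibroblast gates. The fibroblast minimum was also reached by 15.7% of H2BMc-positive cells, against at most 0.628% for each other gate, so the fibroblast-gated cells and tumour cells without a detected H2BMc UMI cannot be told apart. All 9 libraries entered the tests except for lymphocytes, of which 4 libraries held at least 20 cells, Kmt2c KO libraries 2 and 3 and Kmt2d KO libraries 1 and 3. No WT library entered that test, since these held 16, 17 and 16 lymphocyte-gated cells.

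**Figure D4:**
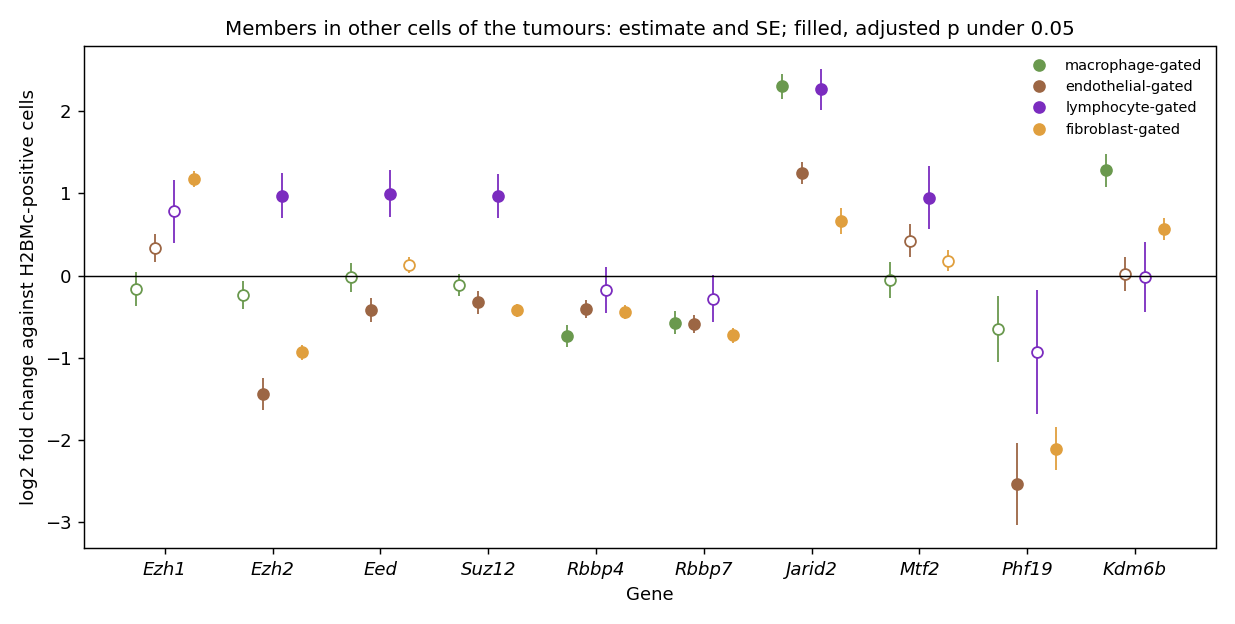
log2 fold change against H2BMc-positive cells (y axis) of each of the 10 genes (x axis) in macrophage-gated, endothelial-gated, lymphocyte-gated and fibroblast-gated cells, with the SE as a bar and filled points where the adjusted p was under 0.05. Jarid2 is higher in all 4 gates, by 2.30, 1.24, 2.27 and 0.66, and Phf19 and Ezh2 are lower in the endothelial and fibroblast gates.

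In macrophage-gated cells 2 of the 10 genes were higher and 2 lower, beside 60.5% of 11470 genes. In the 3 other gates the numbers were 1 higher and 6 lower in endothelial-gated cells (64.5% of all genes called), 5 higher and 0 lower in lymphocyte-gated cells (39.4%) and 3 higher and 5 lower in fibroblast-gated cells (54.4%). The medians over the 10 genes were -0.14, -0.37, 0.86 and -0.15 on the log2 scale, beside -0.21, -0.24, -0.30 and 0.03 over all genes.

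Jarid2 was called higher in all 4 gates. It stood at 286 ± 28.4 CPM (SD, n = 4) in lymphocyte-gated, 246 ± 63.4 CPM (n = 9) in macrophage-gated, 123 ± 46.6 CPM in endothelial-gated and 94.6 ± 29.1 CPM in fibroblast-gated cells, against 65.1 ± 15.8 CPM in other and 43.3 ± 14.1 CPM in cycling H2BMc-positive cells. Each neighbouring pair in this order overlapped in range. The log2 fold changes were 2.27 ± 0.25, 2.30 ± 0.15, 1.24 ± 0.13 and 0.66 ± 0.16. Macrophage-gated cells held 157, 198 and 317 CPM in Kmt2c KO libraries 1 to 3, 196, 212 and 216 CPM in Kmt2d KO and 272, 307 and 335 CPM in WT, from 22 to 179 UMIs each. Every one of these 9 values exceeded the highest tumour-cell value, 87.5 CPM in the other cells of Kmt2c KO library 3. Macrophage-gated WT libraries lay above those of Kmt2d KO and overlapped those of Kmt2c KO, a difference that was not tested.

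Kdm6b, which macrophages are known to induce under inflammatory stimuli, was higher in macrophage-gated cells by 1.28 ± 0.20 and in fibroblast-gated cells by 0.56 ± 0.14 on the log2 scale. Its level in macrophage-gated cells was 62.5 ± 24.1 CPM (SD, n = 9) from 5 to 29 UMIs a library, with 34.2 to 59.7 CPM in Kmt2c KO, 45.6 to 87.5 CPM in Kmt2d KO and 34.9 to 92.9 CPM in WT. The 3 genotypes overlapped. In H2BMc-positive cells outside the cycle it was 41.3 ± 5.03 CPM, within the macrophage range. In fibroblast-gated cells it was 42.5 ± 12.2 CPM (25.4 to 68.7 CPM), a range that held the mean of those H2BMc-positive cells. Kdm6a was higher in macrophage-gated (0.97 ± 0.15), lymphocyte-gated (1.46 ± 0.29) and fibroblast-gated cells (0.53 ± 0.09).

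Ezh2 was lower in endothelial-gated (-1.44 ± 0.19) and fibroblast-gated cells (-0.93 ± 0.10) and higher in lymphocyte-gated cells (0.97 ± 0.27). Its levels were 24.6 ± 13.2 CPM, 37.7 ± 9.45 CPM and 130 ± 49.5 CPM (n = 4), and in macrophage-gated cells, where it was not called, 54.1 ± 21.1 CPM. The first 2 of these ranges overlapped that of other H2BMc-positive cells, 23.1 to 43.3 CPM. Phf19 was lower in endothelial-gated (-2.54 ± 0.50) and fibroblast-gated cells (-2.10 ± 0.26), from 5 and 28 UMIs in all. Its levels there were 2.35 ± 3.51 CPM and 3.25 ± 1.47 CPM. Both ranges overlapped that of other H2BMc-positive cells, which stood at 2.42 ± 1.02 CPM. These fold changes were taken against all H2BMc-positive cells, and the contrast of Phf19 with other cells alone was not tested. Ezh1 was called only in fibroblast-gated cells, where it was higher (1.18 ± 0.10) at 62.7 ± 12.6 CPM. Its range there was 46.9 to 84.2 CPM, against 30.2 to 53.0 CPM with a mean of 40.2 CPM in other H2BMc-positive cells. Of those other cells, only WT library 1 (53.0 CPM) lay above the lowest fibroblast-gated value. The fold change was taken against all H2BMc-positive cells, cycling cells included, and the contrast with other cells alone was not tested.

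Rbbp7 and Rbbp4 were lower in macrophage-gated (-0.57 ± 0.14 and -0.73 ± 0.13), endothelial-gated (-0.59 ± 0.11 and -0.41 ± 0.11) and fibroblast-gated cells (-0.72 ± 0.09 and -0.44 ± 0.09). Rbbp7 stood at 76.0, 73.7 and 72.5 CPM in these gates, against 81.0 CPM (62.1 to 105 CPM) in other H2BMc-positive cells. Rbbp4 stood at 77.3, 96.9 and 103 CPM, against 104.5 CPM (92.8 to 118 CPM). Each gate overlapped those other cells in range, but for Rbbp4 the macrophage-gated range (53.5 to 100 CPM) did so only at its upper end. The fold changes were taken against all H2BMc-positive cells, cycling cells included. The contrast with other cells alone was not tested. Suz12 was lower in fibroblast-gated (-0.42 ± 0.08) and endothelial-gated cells (-0.33 ± 0.14, adjusted p = 0.0478 by edgeR's quasi-likelihood test), the second a call lost without any 1 of 8 libraries, all but WT library 2, with -0.34 to -0.23. Eed was lower in endothelial-gated cells (-0.42 ± 0.15), a call lost without Kmt2c KO library 1 or 3 or Kmt2d KO library 1 (-0.34 to -0.28). In lymphocyte-gated cells Eed (0.99 ± 0.29), Suz12 (0.97 ± 0.27) and Mtf2 (0.94 ± 0.38) were higher. With Kmt2c KO library 2 left out, which held 215 of the 368 cells tested, the calls of Ezh2 (0.85, adjusted p = 0.0884), Eed (0.73, adjusted p = 0.213), Suz12 (0.54, adjusted p = 0.337) and Mtf2 (0.41, adjusted p = 0.655) were lost, and those of Eed (0.63) and Mtf2 (0.82) were also lost without Kmt2d KO library 3. Jarid2 was called whichever library was left out. With DESeq2 size factors in edgeR the median of all genes in the lymphocyte gate moved from -0.30 to -0.47, and of the 5 calls that of Mtf2 (0.78, adjusted p = 0.0841) was lost.

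The levels of 2 more core subunits stand behind these values. Suz12 was at 60.5 ± 8.97 CPM in macrophage-gated, 55.2 ± 18.4 CPM in endothelial-gated, 57.3 ± 11.4 CPM in fibroblast-gated and 142 ± 34.5 CPM (n = 4) in lymphocyte-gated cells, against 67.3 ± 5.40 CPM in H2BMc-positive cells. Eed was at 43.1 ± 14.1, 33.1 ± 8.59, 54.1 ± 13.9 and 124 ± 84.6 CPM in the same order, against 45.6 ± 2.75 CPM. In other H2BMc-positive cells alone Suz12 was at 53.1 ± 5.46 CPM (47.3 to 62.1 CPM). That range lay inside those of endothelial-gated (32.1 to 84.5 CPM) and fibroblast-gated cells (44.8 to 81.1 CPM), and this contrast was not tested. The lymphocyte-gated levels of Eed ran from 43.5 to 242 CPM over 4 libraries, on 64 UMIs in all. Mtf2 was not called outside the lymphocyte gate, where it held 31 UMIs in all.

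Of the context lists, the 3 measured genes of H3K27 demethylases and acetyltransferases (Kdm6a, Ep300 and Crebbp) were all higher in macrophage-gated, lymphocyte-gated and fibroblast-gated cells, with medians of 0.73, 0.95 and 0.53, and none was called in endothelial-gated cells. The call of Kdm6a in fibroblast-gated cells was lost with 1 marker more in the gate (0.32, adjusted p = 0.0815). Of the PRC1 genes 9 of 22 were lower and 3 higher in macrophage-gated cells, 11 of 22 and 4 in endothelial-gated, 3 of 23 and 6 in lymphocyte-gated and 4 of 22 and 7 in fibroblast-gated cells. The medians were -0.60, -0.77, -0.27 and 0.06. Of the 21 genes of other complexes with Rbbp4 or Rbbp7 11 were lower and 1 higher in fibroblast-gated cells, with a median of -0.32. The shares of all genes called were 60.5, 64.5, 39.4 and 54.4% in the macrophage, endothelial, lymphocyte and fibroblast gates, and the shares of the PRC1 list and, in fibroblast-gated cells, of the other complexes lay near them.

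Mural-gated (115) and dendritic-gated cells (156) reached 20 cells in 1 and 2 libraries and were not tested. Pooled over libraries, Jarid2 measured 138 CPM (exact Poisson 95% interval 103 to 182, from 51 UMIs) in mural-gated and 271 CPM (231 to 317, from 157 UMIs) in dendritic-gated cells. Kdm6b measured 65.1 CPM (41.7 to 96.9, from 24 UMIs) and 89.9 CPM (67.1 to 118, from 52 UMIs), and Ezh2 35.3 CPM (18.8 to 60.3, from 13 UMIs) and 76.1 CPM (55.3 to 102, from 44 UMIs). These intervals cover counting error only.

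The genes whose levels ran most like those of Ezh2 over the 27 sums of library and cycle class were Cks1b (Pearson r = 0.975), Cdk1 (0.975), Nelfe (0.975), Knstrn (0.973) and Hmgb1 (0.972), among 6650 genes with a mean of at least 20 CPM. Cdk1 is one of the genes of the G2/M gate. For Jarid2 over the 9 library sums they were Slc25a4 (0.939), Kpna1 (0.938), Cep85 (0.929), AY036118 (0.928) and Il1rapl1 (0.924), among 6662 genes. The points share libraries and depth, and these values are descriptions only.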

How the data were processed

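The deposited matrix held counts of unique molecular identifiers (UMIs) per gene and cell barcode, which the authors made with Cell Ranger count and aggr 7.0.1 on mm10 from 10x 5′ HT v2 libraries, without normalisation. The genotype letter of each barcode suffix, together with the labels, gave the group, and 0 value columns were left unmapped. Library numbers only name libraries.

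The 10 genes, the lists and the gates were chosen with earlier results of these data known. Cells were kept by the study's limits (over 500 and under 7500 genes, under 15% mitochondrial counts). Sums per library, or per library and class with at least 20 cells and the library as a block, were tested with edgeR 4.0.16 (quasi-likelihood, filterByExpr, TMM, R 4.3.3), and p-values were adjusted over all genes tested by the Benjamini-Hochberg method. SE is the log2 fold change over the square root of F, and 95% intervals are the value ± 1.96 SE. These intervals take the normal distribution and are somewhat too narrow for so few libraries. Alternatives included DESeq2 1.42.0, no low-count filter, other cell sets, a gate with lower limits on cells of at least 3000 UMIs thinned to 3000, and each library left out. Doublets were not called; cells in the top 5% of UMIs were left out as an alternative. Reads that fit several genes are not counted by Cell Ranger, so that levels of the paralogues Rbbp4 and Rbbp7 are uncertain where their sequences coincide. Precision rests on 94 to 6890 UMIs per gene and library. On simulated counts with Kmt2c KO against WT, 52.2% of 1.5-fold, 98.5% of 2-fold and 100% of 4-fold changes were recovered among 9945 genes. The simulation left out genes of low level and gave all genes the same fixed spread between libraries. These shares therefore do not measure the power of the real libraries, whose spread was uneven.

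Named were the 10 genes and Kdm6a, from each list the called genes with the largest changes (at most 6 for a knockout against WT and 4 for cycling cells), and for Ezh2 and Jarid2 the 5 genes with the highest Pearson r at a mean of at least 20 CPM. Promoter sequences came from RefSeq (GRCm38.p6). Tables and plots used Python 3.11.15 with numpy 2.4.6, pandas 2.3.3, scipy 1.17.1 and matplotlib 3.10.9.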

Additional observations from a re-analysis of the deposited data

Results flagged for a closer look

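The difference between cycling and other H2BMc-positive cells was larger in Kmt2c KO than in WT by 0.64 on the log2 scale for Ezh2 (adjusted p = 0.00416) and by 0.53 for Ogt (adjusted p = 0.0179), by a test of the difference itself with edgeR's quasi-likelihood test. Of all genes tested 1.81% were called for this difference. Ogt encodes a transferase of sugar groups that binds the H2A deubiquitinase. The value of Ogt was 0.43 (adjusted p = 0.0672) with the gate on thinned cells and 0.27 (adjusted p = 0.445) in cells that passed no other gate, and its call was lost without Kmt2c KO library 1 or 3 or WT library 1 or 3, with values of 0.46 to 0.53 and adjusted p of up to 0.124.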

How the results depend on the processing

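Of 1275 recomputed results for 85 values, 1180 kept their direction and their side of the threshold, 65 lost a call, 18 gained one and 12 changed sign. Between Kmt2d KO and WT (320 genes) there were 698 with DESeq2, 516 with no low-count filter, 177 with those 2 groups alone in the fit and 154 in other cells alone. Between the knockouts (11 genes) there were 587 with DESeq2, 521 with no low-count filter, 37 in cycling cells alone, 24 in other cells alone and 18 in H2BMc-positive cells that passed no other gate. In that comparison edgeR called 0 with those groups alone in the fit (1947 at an unadjusted p under 0.05), 0 in the set that added Krt8-positive cells (2211), 0 in thinned library sums (2120) and 0 without the 5% of cells with the most UMIs (2498). For the cycling effect in Kmt2c KO against WT (243 genes) there were 589 with no low-count filter and 129, in a choice made after the data had been seen, in cells that passed no other gate. For that in Kmt2d KO (9 genes) there were 18 with DESeq2, 237 with no low-count filter and 16 with the thinned gate. Fibroblast-gated cells with 1 marker more gave 3917 genes (6237 without). The share of cycling cells in Kmt2c KO minus WT was -2.06 percentage points with the thinned gate. The cause was not tested.

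With 1 library left out the counts ran from 1256 (without WT library 2) to 4140 for Kmt2c KO against WT, from 98 (without WT library 1) to 823 for Kmt2d KO against WT, from 0 (without any 1 of the libraries but Kmt2c KO 1, which gave 71, and Kmt2d KO 2) to 2797 between the knockouts, from 75 (without WT library 3) to 543 for the cycling effect in Kmt2c KO and from 3 (without WT library 3) to 79 for that in Kmt2d KO, and each of these highest counts was reached without Kmt2d KO library 2. The first count also moved by over 1.5 times without Kmt2c KO library 2 or 3 or WT library 1 or 3, the second without Kmt2d KO library 3 or WT library 2 or 3, the fourth without any 1 Kmt2c KO library or WT library 1 or 2, and the fifth without WT library 1. Signs changed for 3 genes. For Jarid2 in G2/M against S the values were 0.0077 with no low-count filter and 0.24 with the thinned gate, and -0.12 to 0.012 with a library left out. For Kdm6b in G2/M against S the thinned gate gave 0.010. For Mtf2 in cycling against other cells the values were 0.017 with no low-count filter, 0.089 with the thinned gate, 0.14 with the score gate, 0.0019 in cells that passed no other gate, and -0.048 to 0.017 with a library left out.

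No paired analysis was possible because the library names carry letters of the genotype and no replicate numbers of the labels, so that numbers could not be matched across genotypes. Tests of mural-gated and dendritic-gated cells were not run, since fewer than 3 libraries held 20 such cells. Depth limits Phf19 most: WT other cells held 3 to 12 of its UMIs a library, and no gated type but fibroblasts held over 16 in all libraries tested.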
